A study of Mus musculus with 9 samples.

Results

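The laminins and basement membrane adhesion genes were followed in 9 KLN205 tumors, as 9 genes picked by symbol from the deposited gene table: *Lama3*, *Lama5*, *Lamb2*, *Lamb3*, *Lamc1*, *Nid1*, *Hspg2*, *Itga6* and *Itgb4*. All 9 were among the 19481 genes listed, and all 9 were among the 14725 genes with enough reads to be tested. KLN205 is a mouse lung squamous cell carcinoma line. Its cells carried a doxycycline-inducible SMARTvector shRNA and were grown under the skin of female DBA/2 mice aged 6 to 8 weeks, and bulk RNA was sequenced from tumors taken at day 50. The 3 groups, with 3 tumors from different mice in each, were control shRNA, sh2 *Tmprss11b* and sh3 *Tmprss11b*, of which the study calls the last ones shRNA1 and shRNA2. Doxycycline was given to every group, controls included, once the mean tumor volume had reached 100 mm3. The shRNA acts only in the transduced carcinoma cells, whereas blood vessels, fibroblasts and immune cells came from the host, and both are mouse cells whose reads were not separated. A lower level in such bulk RNA can mean fewer cells of a type or less RNA per cell, and these cannot be told apart. The control tumors were also the larger ones in the study, so tumor size and group cannot be told apart.

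A basement membrane is a thin sheet of matrix that lies under every epithelium and around blood vessels, muscle fibers, fat cells and nerves. Laminins are its organizing proteins, each built of 1 α, 1 β and 1 γ chain. Laminin-332, which contains the products of *Lama3* and *Lamb3*, anchors squamous epithelium, and the integrin formed by *Itga6* and *Itgb4* holds it at the hemidesmosome. Laminins with the α5 chain of *Lama5*, the β1 or β2 chain and the γ1 chain of *Lamc1* lie under simple epithelia and vessels. Nidogen-1, encoded by *Nid1*, and perlecan, the large heparan sulfate proteoglycan encoded by *Hspg2*, tie the laminin sheet to the type IV collagen network.

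Counts on genes summed to 20653219 to 24047784 in a tumor. *Tmprss11b*, listed as *Tmprss11bnl*, had 18, 51 and 42 counts in the control tumors, 7, 2 and 5 in the sh2 tumors and 10, 4 and 5 in the sh3 tumors. Levels are given as CPM (a count scaled by the TMM-normalized total of its tumor). Of the squamous markers, *Krt14* was at 71.7 to 390 CPM and *Krt6a* at 116 to 292 CPM in the controls. *Pkp1* was at 102 to 221 CPM there and *Sox2* at 22.6 to 26.2 CPM. By contrast, *Trp63* was at 1.53 to 6.94 CPM and *Dsg3* at up to 3.36 CPM in the controls. In control replicates 2 and 3, *Krt5* was at 0.46 and 0.57 CPM and *Dsc3* at 0 and 0.12 CPM. Control replicate 1 had *Krt14* at 390 CPM, *Krt5* at 87.4 CPM and *Dsc3* at 9.63 CPM. It also held skin-type transcripts such as *Krt10* at 45.7 CPM. The simple-epithelium keratins *Krt8*, *Krt18* and *Krt19* were at 644 to 2126 CPM in every tumor. One library stood apart by transcript length: in sh3 replicate 2 the shortest 10% of the genes tested had a median log2 CPM 0.57 above the mean of the other tumors, and the longest 10% were 0.32 below it. All 9 genes are longer than most, from percentile 72.8 of length among the genes tested for *Lamb3* to percentile 99.6 for *Hspg2*. Where leaving out that tumor turns the sign of a value for one of the 9 genes, the value without it is given too. The fits were repeated with the length trend of each tumor taken out, a setting chosen after the data had been seen, and its values are given for some genes below.

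In the control tumors, levels per transcript length (TPM, as deposited) put *Itgb4* first at 143 ± 4.53 TPM (SD, n = 3), followed by *Lama5* at 140 ± 9.38 TPM (SD, n = 3) and *Lamb3* at 134 ± 21.2 TPM (SD, n = 3). The ranges of these neighbors overlapped, so their order is not resolved. A gap separated *Lamb3* from *Lamc1* at 79.8 ± 8.11 TPM (SD, n = 3), whose ranges did not overlap. Below it came *Itga6* at 71.3 TPM, *Lamb2* at 61.4 TPM, *Nid1* at 53.3 TPM, *Lama3* at 34.9 TPM and *Hspg2* at 33.0 TPM, each overlapping in range with the next. Among the α chains, *Lama5* made up 70.1% ± 4.24 (SD, n = 3) of the summed TPM of the α genes in the controls and *Lama3* 17.2% ± 5.67 (SD, n = 3). Among the β chains, *Lamb3* made up 42.8% ± 3.06 (SD, n = 3), *Lamb1* 37.3% ± 1.72 (SD, n = 3) and *Lamb2* 19.8% ± 3.62 (SD, n = 3).

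To ask whether either *Tmprss11b* shRNA altered these genes, counts were compared between groups with edgeR's quasi-likelihood test over all genes, and an FDR under 0.05 was the threshold. None of the 9 genes passed it with sh2, with sh3, for the mean of both or between sh3 and sh2, beside 0.0% of the 14725 genes tested in each of these 4 comparisons. At an unadjusted p under 0.05, none of the 9 differed with sh2 and 2 were lower with sh3, namely *Lamb2* and *Nid1*, beside 461 lower and 515 higher genes with sh3 and 276 lower and 242 higher genes with sh2 among the 14725 tested. As a median over the 9 genes, the log2 fold change came to 0.05 (sh2) and −0.22 (sh3), beside 0.01 and 0.03 over all genes tested. Both comparisons share the control tumors.

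**Figure D1:**
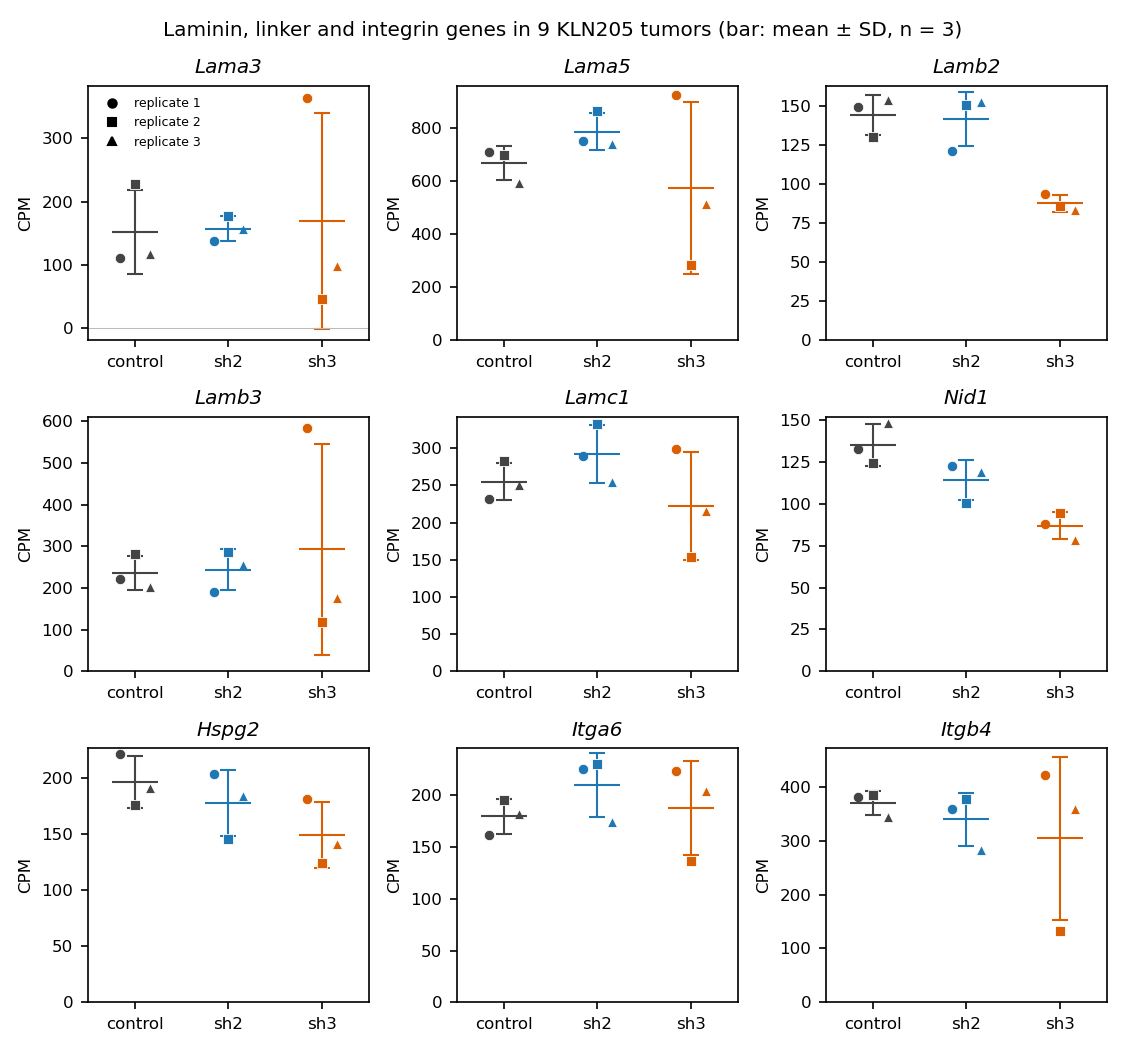
CPM of the 9 genes in each tumor, with 1 panel per gene, the groups on the x axis and CPM from 0 on the y axis. Symbols are single tumors, the horizontal bar is the mean and the whiskers are ±1 SD (n = 3). The 3 sh3 tumors lie close together and low for *Lamb2* and *Nid1*, and far apart for *Lama3*, *Lamb3*, *Lama5* and *Itgb4*.

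*Lamb2*, the β2 chain found in vascular, muscle and kidney basement membranes, gave the largest difference among the 9 genes with sh3. It was at 149.6, 130.1 and 154.0 CPM in controls, at 121.5, 150.5 and 152.9 CPM in the sh2 tumors and at 93.7, 86.2 and 83.4 CPM in the sh3 tumors. All sh3 tumors were below every control and every sh2 tumor, while sh2 overlapped with control. Relative to control, the log2 fold change with sh3 was −0.72 (95% confidence interval −1.02 to −0.42), a level 0.607 times that of the control, with an unadjusted p of 0.00042 and FDR = 0.753 in edgeR. With sh2 it was −0.03 (95% confidence interval −0.33 to 0.27; FDR = 0.999, edgeR). The difference between sh3 and sh2 was −0.69 (standard error 0.13, unadjusted p = 0.00057, FDR = 0.673, edgeR). DESeq2's Wald test, run as an alternative, gave an adjusted p of 0.00206 for sh3 against control and 0.00197 for sh3 against sh2, so the call depends on the tool. The log2 fold change with sh3 was −0.71 without sh3 replicate 2 and −0.65 with the length trend removed.

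*Nid1*, whose product bridges the laminin γ1 chain and type IV collagen, was below the controls with both shRNAs. Its levels were 132.7, 123.9 and 148.1 CPM in controls. The sh2 tumors had 122.5, 100.2 and 119.1 CPM, and the sh3 tumors 87.6, 94.6 and 78.5 CPM. Every tumor with either shRNA was below every control, though sh2 replicate 1 and control replicate 2 differed by little, and every sh3 tumor was below every sh2 tumor. The log2 fold change was −0.63 with sh3 (95% confidence interval −0.94 to −0.33, unadjusted p = 0.00103, FDR = 0.753, edgeR) and −0.24 with sh2 (95% confidence interval −0.55 to 0.06, FDR = 0.999, edgeR). For both shRNAs together the exact permutation test, two-sided, gave p = 0.0357, where 6 tumors against 3 allow 0.0119 at the least. For *Nid1*, DESeq2 gave an adjusted p of 0.00988 for sh3. The log2 fold change of *Nid1* with sh3 was −0.70 without sh3 replicate 2 and −0.55 with the length trend removed.

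Without overlap between the groups, 2 of the 9 genes were lower in sh3 than in control (*Lamb2* and *Nid1*), beside 5.44% of all genes tested, and none was higher, beside 6.78%. In sh2 against control, 1 was lower (*Nid1*, beside 5.83%) and 1 was higher (*Lama5*, beside 5.56%). The 6 tumors of both shRNAs had 1 lower gene (*Nid1*, beside 0.958%) and none that was higher (beside 1.21%), and sh3 against sh2 had 2 that were lower (*Lamb2* and *Nid1*, beside 4.62%) and none that was higher (beside 5.51%). The sh3 count changed when replicate 1 was left out: 7 of the 9 genes were then lower in sh3 than in every control, beside 15.3% of all genes tested. These were all but *Itga6* and *Itgb4*, and *Lamb2* and *Nid1* were lower with or without that tumor. The 15.3% covers genes of all lengths, whereas the 9 genes are longer than most. In sh3 replicates 2 and 3 the longest 10% of genes had a median log2 CPM of −0.32 and −0.12 relative to the other tumors. The part of length in this count was not tested. The smallest p that an exact permutation of 3 tumors against 3 can give is 0.1, which *Lamb2* and *Nid1* reached with sh3 and *Nid1* and *Lama5* with sh2.

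The 124 bases before the annotated gene start of *Lamb2* and *Nid1* are printed so that the regions of these lower genes can be compared (RefSeq promoter table, GRCm38.p6, plus strand, 5′ to 3′). The sequences end before the GENCODE start, since the RefSeq start lies further downstream, by 126 bases for *Lamb2* and 51 bases for *Nid1*. Of the 9 genes, 5 had an entry in the table. Capitals mark matches, on either strand, to a GC box, an AP-1 site, a CCAAT box or a TATA box. The GC box was searched as GGGCGG. The letters of the AP-1 site were TGANTCA, and those of the TATA box were TATAAA.
*Lamb2*, chr9:108479612-108479735: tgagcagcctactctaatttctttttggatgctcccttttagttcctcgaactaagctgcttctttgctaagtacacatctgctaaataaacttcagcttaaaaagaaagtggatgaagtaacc
*Nid1*, chr13:13437427-13437550: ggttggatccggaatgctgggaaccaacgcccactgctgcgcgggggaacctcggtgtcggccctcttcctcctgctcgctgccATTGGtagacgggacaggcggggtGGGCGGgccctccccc
The *Nid1* window held 1 GC box, beginning 16 bases before the GENCODE start, and 1 CCAAT box, beginning 40 bases before it on the opposite strand. These are common: in the 124 bases before each of 32851 RefSeq starts, 26.8% held the GC box and 21.7% the CCAAT box. The *Lamb2* window held none of the 4 motifs, of which the AP-1 site was in 3.58% and the TATA box in 6.52% of all windows. All these shares are for windows that end at the RefSeq start. The printed windows end 126 bases (*Lamb2*) and 51 bases (*Nid1*) before it, so the positions compared are not alike. By the mm10 annotation *Lamb2* lies on chromosome 9 from 108479736 to 108490530 and *Nid1* on chromosome 13 from 13437551 to 13512269, both on the plus strand. No other gene of the table overlaps either of them.

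*Hspg2* (perlecan) was at 221.7, 176.2 and 191.1 CPM in controls, 203.5, 146.0 and 183.8 CPM in the sh2 tumors and 181.6, 124.4 and 140.9 CPM in the sh3 tumors. The mean was lowest in sh3, but sh3 replicate 1 lay above control replicate 2. Its log2 fold change with sh3 was −0.40 (95% confidence interval −0.82 to 0.02, unadjusted p = 0.0592, FDR = 0.760, edgeR). With sh2 it was −0.14 (95% confidence interval −0.56 to 0.27).

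The summed markers of fibroblasts and of mural cells were also lower in the sh3 tumors than in the controls. The summed CPM of 7 fibroblast markers, among them *Col1a1*, *Col1a2* and *Col3a1*, was 3008 to 5327 in the controls, 2354 to 3936 in sh2 and 1249 to 2221 in sh3. All 7 were lower with sh3 by their log2 fold change, with a median of −1.19. Of these, 4 had an unadjusted p under 0.05 in edgeR, beside 461 lower and 515 higher genes among the 14725 tested. The sum of 7 mural cell markers, such as *Pdgfrb* and *Notch3*, was 481 to 498 CPM in the controls, 435 to 542 CPM in sh2 and 310 to 442 CPM in sh3, and all 7 had a log2 fold change below 0 with sh3 (median −0.46). The sum of 10 endothelial markers overlapped between the groups, at 305 to 368 CPM in the controls and 206 to 360 CPM in sh3. All 10 had a log2 fold change below 0 with sh3 (median −0.26). The leukocyte, epithelial and Schwann cell lists went both ways with sh3 by log2 fold change. Of the markers tested, 4 of 6 for leukocytes and 4 of 7 for simple epithelium were higher, while 6 of 7 squamous markers were lower. All adipocyte (4), skeletal muscle (6) and skin cornified layer (2) markers tested were lower, with medians of −4.15, −1.42 and −2.16. The adipocyte sum was 23.7 to 50.6 CPM in the controls and 8.30 to 17.9 CPM in sh3, without overlap. The skeletal muscle and skin cornified layer sums overlapped between control and sh3. No marker of these lists passed the FDR, and the part of the markers in the lower *Lamb2* and *Nid1* was not tested.

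**Figure D2:**
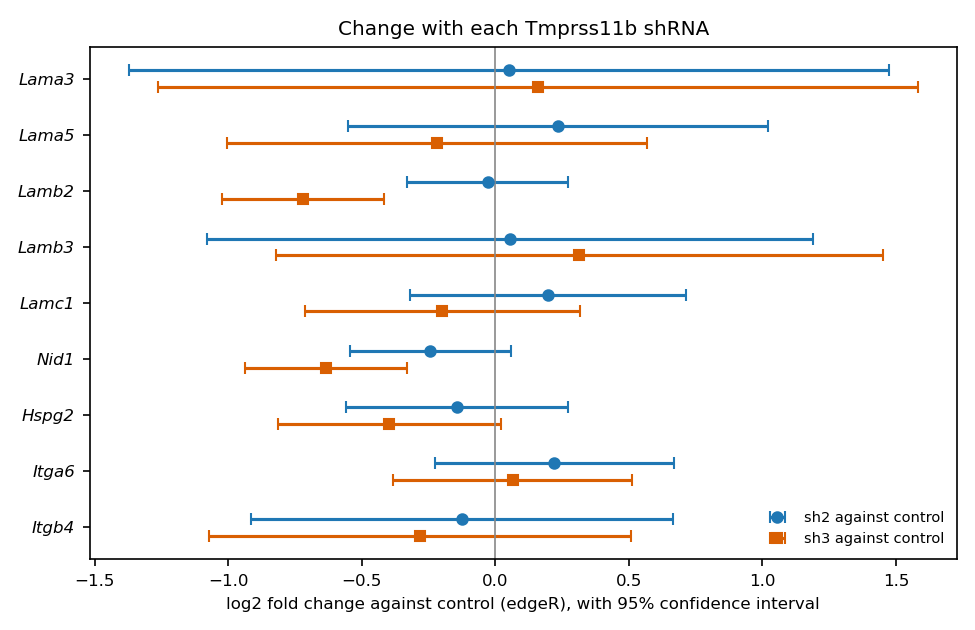
Log2 fold change of each gene against the control tumors on the x axis, for sh2 (circles) and sh3 (squares), with 95% confidence intervals from edgeR. Only the sh3 intervals of *Lamb2* and *Nid1* lie wholly below 0, at −1.02 to −0.42 and −0.94 to −0.33, before any adjustment for the number of genes.

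The laminin-332 chains varied more between tumors of 1 group than between groups. *Lama3* was at 111.5, 227.8 and 116.7 CPM in controls, 137.6, 177.1 and 157.5 CPM in the sh2 tumors and 363.9, 46.1 and 98.9 CPM in the sh3 tumors. *Lamb3* was at 221.7, 281.2 and 202.8 CPM in the controls, 191.3, 285.9 and 255.4 CPM in sh2 and 582.7, 119.0 and 175.9 CPM in sh3. For both genes the highest and the lowest of the 9 tumors were sh3 tumors, replicate 1 and replicate 2. For sh3, the log2 fold change was 0.16 for *Lama3* (95% confidence interval −1.26 to 1.58) and 0.31 for *Lamb3* (95% confidence interval −0.82 to 1.45), with FDR = 0.973 and 0.919 in edgeR. Without sh3 replicate 1 the values were −1.07 and −0.67, and without replicate 2 they were 0.61 and 0.69. For *Lama3* the sh3 value was also below 0, at −0.035 and −0.012, without control replicate 1 or 3. With sh2 the log2 fold change was 0.05 for each.

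*Lamb3* exceeded *Lama3* 4.11 ± 0.954-fold (SD, n = 3) in TPM in the controls, so these partner genes were not at equal RNA levels. The *Lamb3* region overlaps *Hsd11b1* and *G0s2* on the opposite strand, and the strand setting of the counting is not given in the sources used here; these genes had 35 to 179 and 45 to 357 counts per tumor.

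Across the 9 tumors *Lama3* and *Lamb3* varied together. The log2 CPM of *Lama3* and *Lamb3* had a Pearson r of 0.95 (exact permutation p = 0.000515, 0.00468 after Benjamini-Hochberg adjustment over 12 pairs of partner genes) and a Spearman rho of 0.92 (exact permutation p = 0.00131, adjusted 0.00608). Without the tumors farthest from the median of *Lama3*, which were sh3 replicates 1 and 2, r was 0.86, and with group means removed it was 0.97. The adjusted exact permutation p over the remaining 7 tumors was 0.05, so the call rests on those 2 tumors.

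**Figure D3:**
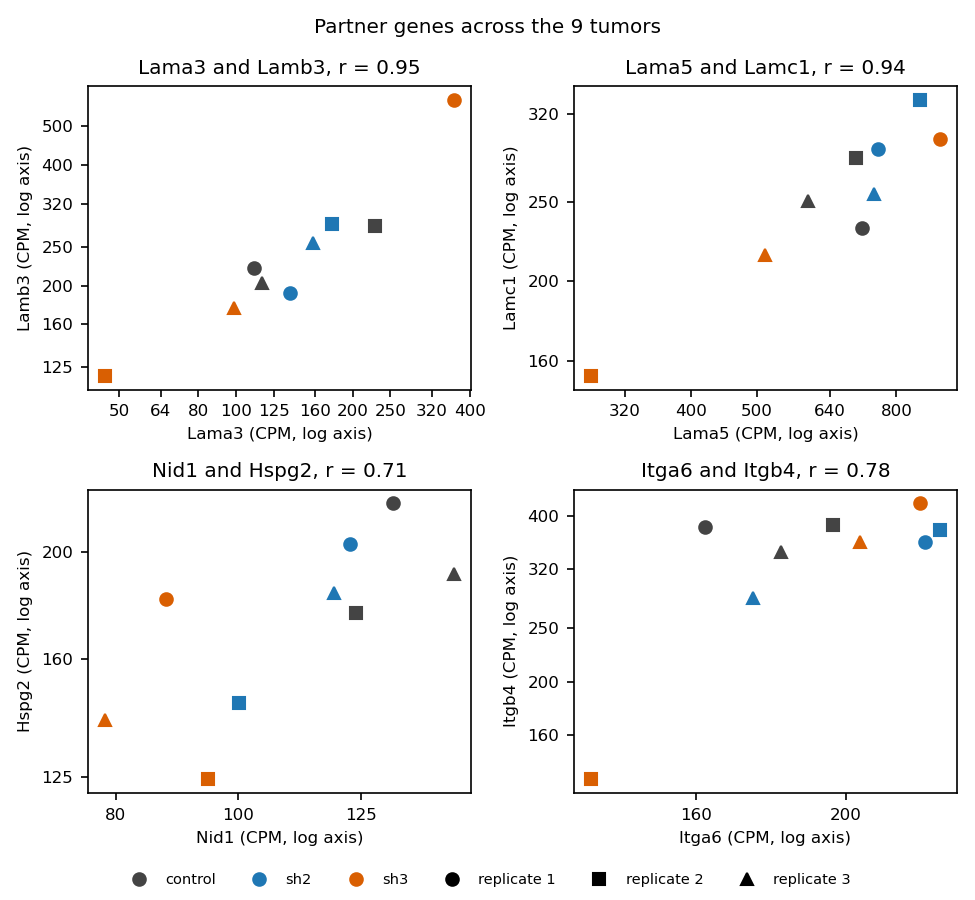
CPM of 4 pairs of partner genes on log axes, with each point a tumor, colors for the group and symbols for the replicate number. *Lama3* and *Lamb3* follow a line (r = 0.95) whose ends are sh3 replicates 1 and 2, whereas *Lama5* with *Lamc1* (r = 0.94) and *Itga6* with *Itgb4* (r = 0.78) have sh3 replicate 2 far below the rest.

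*Lama5* and *Lamc1*, chains of the laminins under simple epithelium and endothelium, shared another pattern. *Lama5* was at 712.4, 698.5 and 594.0 CPM in the controls, 751.9, 866.8 and 742.6 CPM in sh2 and 925.8, 285.6 and 513.2 CPM in sh3. Every sh2 tumor was above every control, and the sh3 tumors spanned the whole range. The log2 fold change was 0.24 with sh2 (95% confidence interval −0.55 to 1.02, FDR = 0.999, edgeR) and −0.22 with sh3 (standard error 0.35, FDR = 0.919, edgeR). With the length trend removed the sh2 tumors no longer lay apart from the controls. Without sh3 replicate 2 the sh3 value was 0.11.

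*Lamc1* was at 232.3, 282.5 and 250.6 CPM in the controls, 289.6, 332.7 and 255.1 CPM in sh2 and 298.3, 153.3 and 215.4 CPM in sh3. Its groups overlapped, with log2 fold changes of 0.20 for sh2 (95% confidence interval −0.32 to 0.71) and −0.20 for sh3 (95% confidence interval −0.71 to 0.32), the latter 0.01 without sh3 replicate 2. *Lama5* and *Lamc1* had a Pearson r of 0.94 over the 9 tumors (exact permutation p = 0.00078, adjusted 0.00468) and a Spearman rho of 0.90 (exact permutation p = 0.00203, adjusted 0.00608), and r was 0.69 without sh3 replicates 2 and 3 (adjusted exact p = 0.116), so this relation also rests on those tumors. *Lamb2*, a β chain that can join both, had r = 0.51 with each (adjusted exact permutation p = 0.191), and r turned to −0.60 and −0.41 without the same tumors. In sh3 replicate 1 *Lama5* was the highest of the 9 tumors while *Lamb2* was below all controls. In sh3 replicates 2 and 3, by contrast, *Lama5*, *Lamc1* and *Lamb2* were all below every control. These 9 tumors do not settle whether the β2 gene follows its partner chains. Of the summed β chain TPM in the sh3 tumors, *Lamb2* made up 13.7% ± 7.32 (SD, n = 3), against 19.8% ± 3.62 (SD, n = 3) in the controls, and *Lamb3* 42.9% ± 5.17 (SD, n = 3), against 42.8% ± 3.06 (SD, n = 3).

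The hemidesmosome integrin was expressed in every tumor. *Itgb4*, encoding the β4 subunit with the long cytoplasmic tail that binds plectin, was at 381.1, 384.8 and 344.1 CPM in the controls, 358.0, 377.0 and 283.3 CPM in sh2 and 421.2, 133.1 and 358.1 CPM in sh3. All but sh3 replicate 2 lay between 283.3 and 421.2 CPM. Its log2 fold change was −0.28 with sh3 (95% confidence interval −1.07 to 0.51, FDR = 0.894, edgeR), 0.07 without replicate 2, and −0.12 with sh2 (95% confidence interval −0.91 to 0.67, FDR = 0.999, edgeR).

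*Itga6*, encoding the α6 subunit that pairs with β4 or with β1, was at 162.2, 196.0 and 181.6 CPM in the controls, 225.0, 229.9 and 174.2 CPM in sh2 and 223.4, 136.8 and 204.0 CPM in sh3. Its groups overlapped, and the log2 fold change was 0.22 with sh2 (95% confidence interval −0.23 to 0.67) and 0.06 with sh3 (95% confidence interval −0.38 to 0.51). The sh3 value was −0.077 without sh3 replicate 1 and −0.017 without sh3 replicate 3 or without control replicate 1. The TPM of *Itgb4* was 2.02 ± 0.239 (SD, n = 3) times that of *Itga6* in the controls, 1.58 ± 0.0248 (SD, n = 3) times in sh2, and 0.949 to 1.84 times in the sh3 tumors. Over the 9 tumors their Pearson r was 0.78 (exact permutation p = 0.0158, adjusted 0.0315) and their Spearman rho 0.45 (exact permutation p = 0.23, adjusted 0.345). Without sh3 replicate 2 and control replicate 1, the tumors farthest from the median of *Itga6*, r was 0.74 (adjusted exact permutation p = 0.0754), and with the length trend removed it was 0.61 (adjusted exact permutation p = 0.085), so the call rests on these choices. *Itgb4* had r = 0.78 with its ligand chain *Lama3* (adjusted exact permutation p = 0.0305) and r = 0.68 with *Lamb3* (adjusted exact permutation p = 0.149). Without sh3 replicate 2 and sh2 replicate 3 these values were r = 0.85 (adjusted exact permutation p = 0.05) and 0.91. With the length trend removed they were r = 0.69 (adjusted exact permutation p = 0.085) and 0.59, so the call for *Lama3* rests on these choices. Spearman's rho of these pairs was 0.63 and 0.70 (adjusted exact permutation p = 0.130 and 0.0865).

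*Nid1* and *Hspg2* had r = 0.71 (exact permutation p = 0.035, adjusted 0.0601) and rho = 0.72 (exact permutation p = 0.0369, adjusted 0.0865). *Nid1* and *Lamc1*, whose products bind each other, had r = 0.20 (exact permutation p = 0.625, adjusted 0.625), and *Hspg2* and *Lamc1* r = 0.47 (exact permutation p = 0.203, adjusted 0.221). Without the 2 tumors farthest from the median of the first gene, r was 0.86 for *Nid1* and *Hspg2*, 0.13 for *Lamc1* and *Nid1* and 0.33 for *Lamc1* and *Hspg2*. With group means removed, r was 0.34 for *Nid1* and *Hspg2*, −0.46 for *Lamc1* and *Nid1* and 0.34 for *Lamc1* and *Hspg2*.

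The remaining genes of the pathway were taken from 4 lists: other laminin chains, other basement membrane components, other hemidesmosome components, and other laminin and collagen receptors. Of their 40 genes 37 were tested, and none passed the FDR in any comparison. With sh3, 25 of the 37 had a log2 fold change below 0 and 12 above it, with a median of −0.31. At an unadjusted p under 0.05, 6 were lower and none was higher with sh3, and with sh2 1 was lower and 1 was higher, beside the 461 lower and 515 higher genes (sh3) and 276 lower and 242 higher genes (sh2) among all 14725 tested. Without overlap, 8 were lower in sh3 than in control (*Lama2*, *Lama4*, *Col4a1*, *Col4a2*, *Col4a4*, *Col4a5*, *Col17a1* and *Dag1*), beside the 5.44% of all genes given above, and none was higher. *Col4a4* and *Col4a5* were outside the rule for genes to be named and are given because they were part of that count. For *Col17a1* and *Col4a4* the groups lay apart by few reads. *Col17a1* had 339, 9 and 6 counts in the controls and 5, 3 and 3 in sh3. *Col4a4* had 23, 30 and 15 counts in the controls and 6, 9 and 14 in sh3. For *Dag1*, sh3 replicate 1 at 145.7 CPM lay just below control replicate 2 at 146.1 CPM.

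*Lama4*, the α4 chain of endothelial basement membranes, was at 59.5, 55.7 and 55.5 CPM in the controls, 57.0, 52.1 and 58.4 CPM in sh2 and 35.1, 46.4 and 38.8 CPM in sh3. The sh3 tumors were below all others, and the log2 fold change was −0.50 (95% confidence interval −0.80 to −0.21, unadjusted p = 0.00403, FDR = 0.753, edgeR). *Lama2*, the α2 chain of muscle and nerve, was low, at 9.20, 5.01 and 8.19 CPM in the controls and 2.91, 2.49 and 0.77 CPM in sh3, and the log2 fold change was −1.86 (95% confidence interval −3.05 to −0.67, unadjusted p = 0.00625, FDR = 0.753, edgeR). The type IV collagen chains *Col4a1* and *Col4a2*, which form the network that nidogen and perlecan bind, had log2 fold changes of −0.49 and −0.60 with sh3 (unadjusted p = 0.0165 and 0.00944, FDR = 0.753 for both, edgeR). *Col4a1* was at 598.7, 791.9 and 556.4 CPM in the controls and 528.2, 433.5 and 425.4 CPM in sh3, a small gap between the groups. *Nid2*, the second nidogen, had a log2 fold change of −0.35 (95% confidence interval −0.83 to 0.13), and its groups overlapped. With the length trend removed the sh3 values were −0.42 for *Lama4*, −1.80 for *Lama2*, −0.43 for *Col4a1* and −0.55 for *Col4a2*.

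*Lamb1*, the β1 chain, was at 252.3, 328.8 and 270.0 CPM in the controls and at 796.6, 189.0 and 228.3 CPM in sh3, where 1 tumor exceeded the rest by far. Its log2 fold change with sh3 was 0.51 (95% confidence interval −0.55 to 1.58), and −0.44 without sh3 replicate 1. *Col7a1*, the anchoring fibril collagen under stratified epithelium, was at 416.8, 300.3 and 154.3 CPM in the controls and 579.3, 148.1 and 107.6 CPM in sh3, with a log2 fold change of −0.06 (95% confidence interval −1.42 to 1.29), which turned to 0.24 without sh3 replicate 2, 0.31 without sh3 replicate 3 and 0.28 without control replicate 1. *Agrn*, the proteoglycan agrin, was higher in every sh2 tumor (500.5 to 832.1 CPM) than in every control (410.5 to 453.4 CPM), with a log2 fold change of 0.59 (95% confidence interval −0.21 to 1.38, FDR = 0.999, edgeR). Its log2 fold change with sh3 was 0.06, and −0.48 without sh3 replicate 1.

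Within the hemidesmosome, the plakin genes *Plec* and *Dst*, which link the integrin to keratin filaments, had log2 fold changes of 0.16 (95% confidence interval −0.71 to 1.03) and 0.15 (95% confidence interval −0.69 to 0.98) with sh3. Both turned sign without sh3 replicate 1, to −0.45 for *Plec* and −0.40 for *Dst*, and *Dst* was at −0.01 without control replicate 1. *Col17a1*, the transmembrane collagen of epidermal hemidesmosomes, was at 14.4 CPM in control replicate 1 and at 0.13 to 0.51 CPM in the other tumors. Its log2 fold changes of −3.45 with sh2 and −4.84 with sh3 rest on the control tumor with skin-type transcripts, and without that tumor the values were 0.55 and −0.85. Among the receptors, *Itgb1* had a log2 fold change of 0.16 (95% confidence interval −0.16 to 0.49) with sh3 and *Itga3* 0.08 (95% confidence interval −0.63 to 0.79), which was −0.36 without sh3 replicate 1 and −0.0065 without control replicate 1. *Cd151*, the tetraspanin partner of laminin-binding integrins, was at 0.00 (95% confidence interval −0.28 to 0.28), and it is shorter than the other genes, at percentile 31.1 of length. *Dag1*, encoding dystroglycan, had −0.31 (95% confidence interval −0.71 to 0.08), and *Bcam*, the receptor of the α5 chain, −0.43 (95% confidence interval −1.42 to 0.57).

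**Figure D4:**
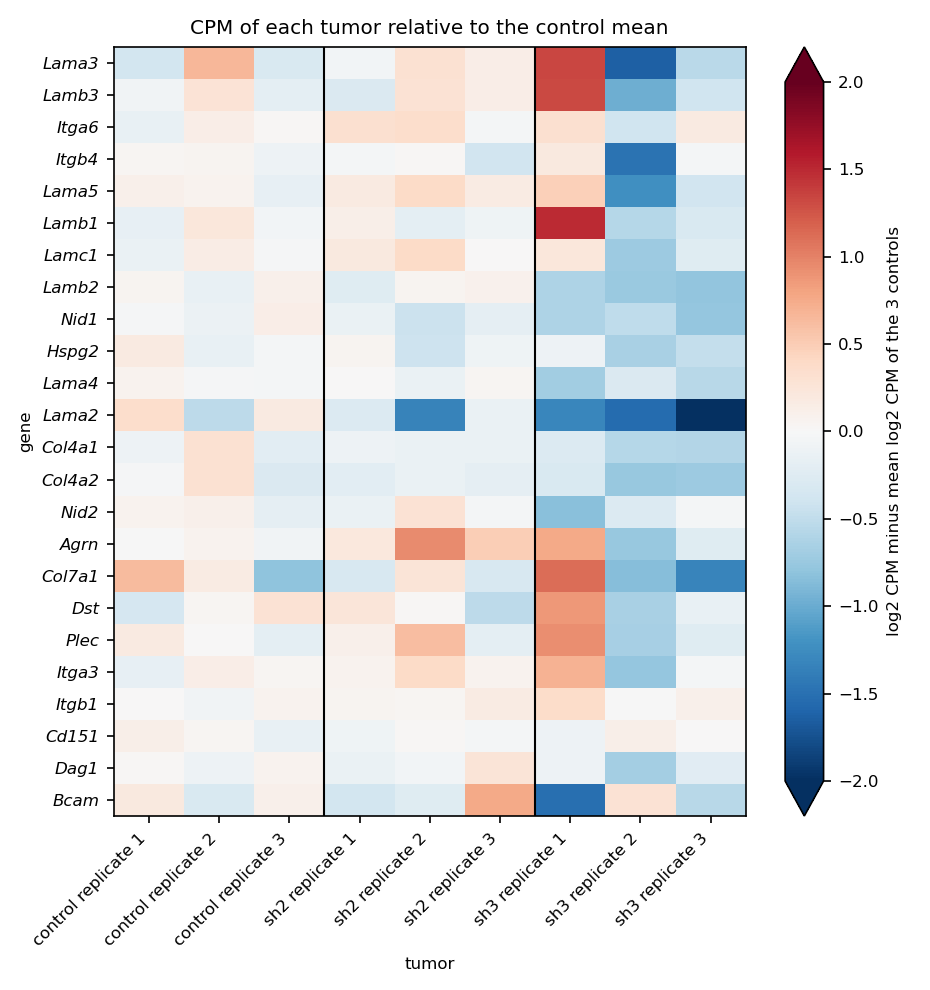
Log2 CPM of 24 genes (rows) in the 9 tumors (columns), minus the mean log2 CPM of the 3 control tumors, with red for higher and blue for lower. *Col17a1* is left out because it was near 0 in all but 1 tumor. The rows from *Lamb2* to *Col4a2* are blue in all sh3 tumors, whereas the rows from *Lama3* to *Lamc1* go from red in sh3 replicate 1 to blue in sh3 replicate 2.

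The median deviation of the 9 genes from the other tumors was −0.80 in sh3 replicate 2, −0.37 in sh3 replicate 3, and between −0.0040 (control replicate 3) and 0.32 (sh2 replicate 2) in the rest, with 0.28 in sh3 replicate 1. The shortest 10% of genes minus the longest 10% came to 0.89 in sh3 replicate 2 and 0.23 in sh3 replicate 3, to −0.41 in sh3 replicate 1, to −0.37 in control replicate 3 and to −0.091 in sh2 replicate 2. The part of length in these deviations was not tested. With the length trend removed, the log2 fold changes with sh3 were 0.08 for *Lama3*, 0.32 for *Lamb3*, −0.23 for *Lama5*, −0.27 for *Itgb4*, −0.32 for *Hspg2*, 0.12 for *Itga6* and −0.15 for *Lamc1*, none with an FDR under 0.05 in edgeR.

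**Figure D5:**
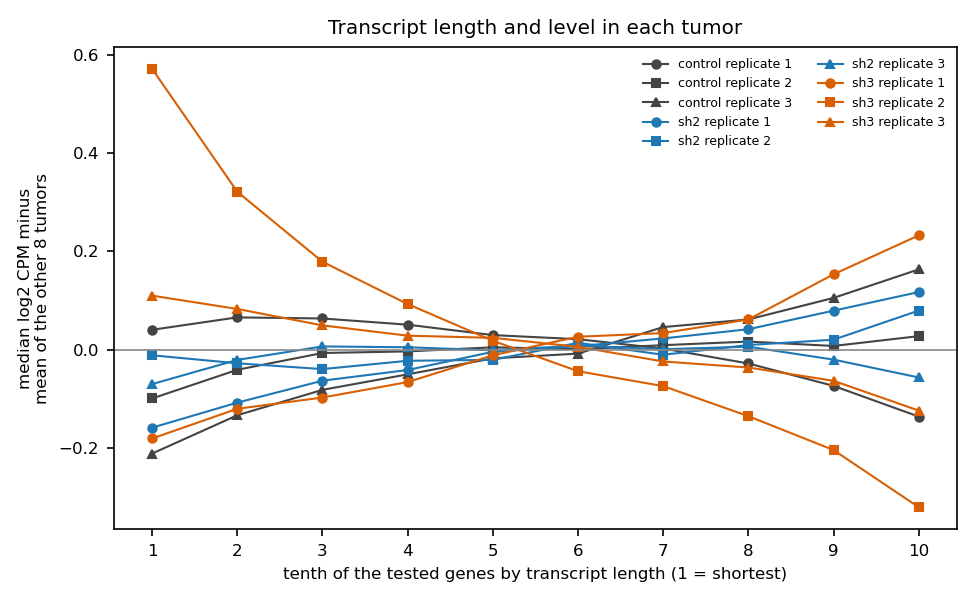
Median log2 CPM minus the mean of the other 8 tumors on the y axis, for the genes tested divided into 10 bins by transcript length on the x axis, with 1 line per tumor. The line of sh3 replicate 2 falls from 0.57 to −0.32, and that of sh3 replicate 1 climbs from −0.18 to 0.23.

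Among 10394 genes that averaged 10 CPM or more, those whose log2 CPM followed a member most closely over the 9 tumors were found by Pearson's r, as a description. For *Nid1* they were *Loxl3* (r = 0.96), *Cipc* (r = 0.95) and *Mrc2* (r = 0.94), and for *Hspg2* they were *Slc36a1* (r = 0.97), *Tspan9* (r = 0.94) and *Pkd1* (r = 0.93). For *Lamb3* they were *Csnk1d* (r = 0.96), *Ppp1r15a* (r = 0.95) and *Calu* (r = 0.95), and for *Itgb4* *R3hdm2* (r = 0.97), *Zfp335* (r = 0.96) and *Nup214* (r = 0.96). The tumors share group, composition and the length trend, and the highest of many coefficients is high by selection.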

How the data were processed

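RNA was sequenced from 9 subcutaneous KLN205 tumors, prepared with a stranded mRNA kit. Reads were checked by the authors with fastqc and aligned to mm10 with STAR 2.5.3a, per the submitters' processing notes, and the authors deposited raw counts per gene symbol from featureCounts. The annotation release and strand setting are not given in the sources used here. The authors also deposited TPM, used here for levels per length, and 9 CPM columns, fold changes and p-values of their own comparisons, which were not used.

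One edgeR model held the raw counts of the 9 tumors, fitted in edgeR 4.0.16 (R 4.3.3) with the group as the only factor, after filterByExpr and TMM normalization, by the robust quasi-likelihood test, with Benjamini-Hochberg adjustment over the 14725 genes tested. The fit was tested on simulated counts. Confidence intervals are at 95%. A level of 3 counts corresponded to 0.123 to 0.152 CPM. That level allows for counting error only, and no molecular identifiers were used. Between tumors of 1 group, counts differed by more than counting error (chi-square per degree of freedom 32.1 to 225). Exact permutation tests and correlations used log2 CPM with a prior count of 2 (Python 3.11.15, scipy 1.17.1). Transcript length was taken from the ratio of counts to TPM. Tumors came from different mice.

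The members, gene lists, tests and rule for named genes were chosen with earlier results of these data known. Named were the 9 members, a fixed set of partner genes, listed genes past the FDR or without overlap between control and both shRNAs, and the 3 genes most like each of *Lamb3*, *Itgb4*, *Nid1* and *Hspg2*. Alternatives were DESeq2 1.42.0 (Wald test, or size factors alone), edgeR's likelihood ratio test, no filter, only the groups compared, a minimum of 10 counts per tumor, a replicate block, a prior count of 0.5, group means removed, and each tumor left out. Removal of a lowess length trend (span 0.5) was added after seeing the data. One gene is not reported here.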

Additional observations from a re-analysis of the deposited data

How the results depend on the processing

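No call of a member by edgeR's quasi-likelihood test changed under any setting that kept this test. The counts of genes with an FDR under 0.05 over all genes moved with the tool: DESeq2's Wald test gave 2 with sh2, 41 with sh3, 9 for the mean of both and 46 for sh3 against sh2, and edgeR's likelihood ratio test gave 8 with sh3, 8 for the mean of both and 14 for sh3 against sh2, while other scaling, filters and the groups compared alone gave 0. *Lamb2* and *Nid1* with sh3 passed only in DESeq2; over the alternatives their log2 fold changes were −0.80 to −0.65 and −0.70 to −0.55. The cause was not tested.

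The replicate numbers in the labels did not pair the tumors: after removal of group means, same-numbered tumors had a mean correlation of −0.099 (range −0.235 to 0.0863), against 0.0519 for tumors of different number. With the replicate block no gene passed in any comparison, *Lamb2* and *Nid1* with sh3 were at −0.72 and −0.63, and *Lama3* turned sign, to −0.076 with sh3, −0.011 for the mean of both and −0.13 for sh3 against sh2, as did *Lama5* for the mean of both (−0.026).

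Values near 0 changed sign with other settings: *Lama5* (−0.022) and *Lamc1* (0.0079) for the mean of both with the length trend removed, *Lamc1* without a filter (0.0021), and *Cd151* with sh3 (−0.00414 with DESeq2's size factors, −0.00416 in DESeq2, −0.00575 with a minimum of 10 counts per tumor, −0.014 with only the groups compared and −0.039 with the length trend removed). For sh2 against control the log2 fold changes with a tumor left out were *Lama3* −0.13 to 0.47, *Lamb3* −0.071 to 0.21, *Lamb2* −0.093 to 0.066 and *Col17a1* −4.00 to 0.55. For sh3 against control the log2 fold changes with a tumor left out were *Lama3* −1.07 to 0.61, *Lamb3* −0.67 to 0.69, *Lama5* −0.74 to 0.11, *Lamc1* −0.47 to 0.0098, *Itga6* −0.077 to 0.25, *Itgb4* −0.59 to 0.075, *Lamb1* −0.44 to 0.85, *Agrn* −0.48 to 0.34, *Col7a1* −1.18 to 0.31, *Dst* −0.40 to 0.43, *Plec* −0.45 to 0.44, *Cd151* −0.086 to 0.057 and *Itga3* −0.36 to 0.37. For the mean of sh2 and sh3 against control the log2 fold changes with a tumor left out were *Lama3* −0.51 to 0.52, *Lamb3* −0.31 to 0.37, *Lama5* −0.25 to 0.17 and *Lamc1* −0.13 to 0.10. For sh3 against sh2 the log2 fold changes with a tumor left out were *Lama3* −1.12 to 0.55, *Lamb3* −0.73 to 0.63, *Itga6* −0.30 to 0.027 and *Itgb4* −0.47 to 0.20. Leaving out 1 tumor gave 1 to 2 members lower and 1 to 3 higher without overlap in sh2, 2 to 7 lower and 0 to 1 higher in sh3, and 2 to 7 lower in sh3 against sh2. The shares of all genes tested rise too with a tumor left out: 8.56% to 14.7% were then lower and 8.64% to 14.3% higher in sh2, 8.17% to 15.3% lower and 9.25% to 19.7% higher in sh3, and 6.78% to 15.9% lower in sh3 against sh2. With the length trend removed, 0 members were higher in sh2.

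Of the correlations between partners, those of *Lamc1* with *Nid1* turned to −0.46 with group means removed and −0.086 with the length trend removed, that of *Lamc1* with *Hspg2* to −0.13 with the length trend removed, and those of *Lamb2* with *Lama5* and *Lamc1* to −0.60 and −0.41 without the 2 farthest tumors. Groups of 3 tumors limit what these counts can show: the standard error of the log2 fold change with sh3 ranged from 0.13 for *Lamb2* and *Nid1* to 0.63 for *Lama3*.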

Other observations

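The summed CPM of the other marker lists was as follows. Squamous markers (8 genes) ranged from 318 to 951 in the controls, 362 to 403 in sh2 and 127 to 546 in sh3, and simple-epithelium markers (7 genes) from 3794 to 5095, 3985 to 8259 and 4235 to 4808. Leukocyte markers (6 genes) were at 1310 to 1551 in the controls, 1170 to 1621 in sh2 and 898 to 2951 in sh3, with the highest sum in sh3 replicate 2, the tumor with the lowest *Lama3*, *Lamb3*, *Lama5* and *Itgb4*, and the lowest sum in sh3 replicate 1, the tumor with the highest of each. Most of the sum in sh3 replicate 2 was *Lyz2*, at 2149 CPM. *Lyz2*, *Cd68*, *Csf1r* and *Cd79a* were highest in that tumor, and *Ptprc* and *Cd3e* in sh3 replicate 3. Adipocyte markers (5 genes) were at 23.7 to 50.6 in the controls, 8.16 to 36.2 in sh2 and 8.30 to 17.9 in sh3. Skeletal muscle markers (6 genes) were at 16.8 to 2863, 3.46 to 110.6 and 83.7 to 962, and Schwann cell markers (4 genes) at 49.6 to 57.6, 55.4 to 71.3 and 38.3 to 78.0. Skin cornified layer markers, of which 5 of 7 were in the table, were at 114 in control replicate 1 and at 4.10 to 7.06 in the other tumors. Their part in the levels of the laminin genes was not tested.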
